A study of Mus musculus with 80 samples.

Results

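The 9 microglial chemokines examined here are Ccl2, Ccl3, Ccl4, Ccl7, Ccl12, Cxcl1, Cxcl2, Cxcl10 and Cxcl16, taken by gene symbol with earlier results of these data known. All 9 had a row in both deposited tables, that is 9 of 15919 genes listed for the comparison of sorts and 9 of 16000 genes listed for the comparison of preparations. RNA-seq was run on brains of Cx3cr1-NuTRAP mice of both sexes (genotype Cx3cr1(Jung)-cre/Ert2+; NuTRAP+), which received tamoxifen at 100 mg/kg intraperitoneally every day at about 3 months of age. After tamoxifen the Cre recombinase, expressed from the Cx3cr1 gene, turns on an eGFP-tagged ribosomal protein and a labelled nuclear envelope in Cx3cr1+ cells. Every group carried these alleles and received this treatment. The RNA of a whole lysate is called Input, and the RNA pulled down with the tagged ribosomes is called TRAP (translating ribosome affinity purification). Cx3cr1 is also expressed by macrophages of the brain borders, so the TRAP fraction is that of Cx3cr1+ cells and not of microglia alone. Some blood monocytes express it too. Brains were taken months after tamoxifen, and the paper found eGFP in circulating cells back at the level of Cre-negative controls by then.

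In the comparison of sorts, Input and TRAP were taken from brain tissue homogenized directly (Tissue, n = 4), from an enzymatic and mechanical cell suspension (Cell, n = 4), and from suspensions sorted with CD11b beads on a magnetic column (autoMACS, n = 4), with beads and then on a cartridge sorter (autoMACS to Tyto, n = 3), on the cartridge sorter (Tyto, n = 5) or on a droplet sorter (FACSAria, n = 4). The Tyto and FACSAria sorts were gated on cells positive for CD11b, CD45 and eGFP. In the comparison of preparations they were taken from Tissue, from suspensions made at 37 °C without inhibitors, Cell(-), or with the transcription inhibitors actinomycin D and triptolide and the translation inhibitor anisomycin, Cell(+), and from tissue dissociated mechanically in the cold (Dounce), each n = 4. Tissue and Cell replicates of the same number came from the same mouse, as did Cell(-) and Cell(+) replicates of the same number, and the Tissue libraries of both comparisons came from the same 4 mice. The sorted preparations came from other mice than Tissue and Cell. The Cell(-) and Cell(+) suspensions came from other mice than Tissue, and the Dounce preparations from other mice than Tissue and the suspensions. Between Tissue, the suspensions and Dounce, a difference due to the preparation therefore cannot be told apart from one due to the mice. Libraries held 7129464 to 20168116 counts in the comparison of sorts and 2471448 to 14650287 counts in that of preparations, with the 4 Dounce-TRAP libraries lowest at 2471448 to 4724538 counts. Levels are given as CPM, a gene's counts relative to the total listed for the library, and a gene is called higher or lower where edgeR's quasi-likelihood test gave a Benjamini-Hochberg false discovery rate (FDR) under 0.1 and a change of more than 2-fold. A fitted change is a log2 fold change ± SE.

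Chemokines are small secreted proteins that draw leukocytes along a gradient by binding G-protein-coupled receptors, and they are classed by the spacing of their first cysteines as CC (Ccl genes) or CXC (Cxcl genes). Ccl2, Ccl7 and Ccl12 bind CCR2, the receptor that brings monocytes into tissue. Ccl3 and Ccl4, the macrophage inflammatory proteins, draw monocytes and T cells. Cxcl1 and Cxcl2 bind CXCR2 and draw neutrophils. Cxcl10 is an interferon-induced ligand of CXCR3 on T cells, and Cxcl16 is a membrane-bound ligand of CXCR6 that also acts as a scavenger receptor. Microglia, the resident macrophages of the brain, transcribe many of these genes within minutes to hours of a stimulus, largely through NF-kB and AP-1 transcription factors, and several of the transcripts are short-lived.

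In the mm10 coordinates of the deposited tables, the members lay in 3 gene groups and at 2 separate loci. The genes of the CCR2 ligands stood together on chromosome 11, with Ccl2 at chr11:82035577-82037452 (+ strand), Ccl7 at chr11:82045712-82047523 (+) and Ccl12 at chr11:82101845-82103399 (+), separated by 8.3 kb and 54.3 kb. A further 1.54 Mb on, Ccl3 at chr11:83647843-83649378 (- strand) and Ccl4 at chr11:83662584-83664683 (+) stood 13.2 kb apart on opposite strands. On chromosome 5, Cxcl1 at chr5:90891245-90893115 (+) and Cxcl2 at chr5:90903899-90905938 (+) were separated by 10.8 kb, and Cxcl10 at chr5:92346639-92348889 (-) lay 1.44 Mb beyond Cxcl2. Cxcl16 at chr11:70454234-70459984 (-) lay 11.58 Mb from Ccl2. No stretch of 50 bases was shared between the transcripts of any 2 members in the GENCODE annotation, and 5.84% of the 50-base stretches of Cxcl2 also occurred in its neighbour Cxcl3.

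Promoter sequence was at hand for 5 of the 9 members (RefSeq, GRCm38.p6), and the 250 bases before each start site are printed because these genes span the responses described below, from the most abundant member after dissociation (Ccl3) through the member that was at 0 in intact tissue (Cxcl2) to members whose fall with inhibitors was not called (Ccl12 and Cxcl10). Capitals mark matches, on either strand, to the kappa-B motif bound by NF-kB, to TGANTCA (bound by AP-1), to GAAA with another GAAA 2 bases further on (bound by interferon-regulated factors) or to TATAAA. The windows are chr11:83649379-83649628 (-) for Ccl3, chr11:82101595-82101844 (+) for Ccl12, chr5:90890995-90891244 (+) for Cxcl1, chr5:90903649-90903898 (+) for Cxcl2 and chr5:92348890-92349139 (-) for Cxcl10, each written 5′ to 3′ on the strand of the gene.
Ccl3: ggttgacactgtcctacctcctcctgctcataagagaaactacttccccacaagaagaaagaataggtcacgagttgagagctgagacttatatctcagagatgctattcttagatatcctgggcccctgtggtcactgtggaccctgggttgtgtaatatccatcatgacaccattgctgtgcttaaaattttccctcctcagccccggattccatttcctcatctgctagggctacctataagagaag
Ccl12: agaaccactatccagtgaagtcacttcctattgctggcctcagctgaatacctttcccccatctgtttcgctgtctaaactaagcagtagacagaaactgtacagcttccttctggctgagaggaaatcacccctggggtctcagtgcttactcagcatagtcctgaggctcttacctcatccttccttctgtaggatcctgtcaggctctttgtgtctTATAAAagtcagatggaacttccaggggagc
Cxcl1: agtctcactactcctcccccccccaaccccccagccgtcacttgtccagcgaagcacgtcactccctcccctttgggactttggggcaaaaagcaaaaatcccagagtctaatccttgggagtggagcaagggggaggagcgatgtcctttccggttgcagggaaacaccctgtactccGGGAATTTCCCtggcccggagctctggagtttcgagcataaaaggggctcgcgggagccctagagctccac
Cxcl2: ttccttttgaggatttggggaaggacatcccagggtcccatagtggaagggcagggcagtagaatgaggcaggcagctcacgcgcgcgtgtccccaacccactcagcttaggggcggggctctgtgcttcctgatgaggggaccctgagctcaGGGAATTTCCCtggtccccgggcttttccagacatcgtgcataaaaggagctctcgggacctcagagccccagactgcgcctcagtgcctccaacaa
Cxcl10: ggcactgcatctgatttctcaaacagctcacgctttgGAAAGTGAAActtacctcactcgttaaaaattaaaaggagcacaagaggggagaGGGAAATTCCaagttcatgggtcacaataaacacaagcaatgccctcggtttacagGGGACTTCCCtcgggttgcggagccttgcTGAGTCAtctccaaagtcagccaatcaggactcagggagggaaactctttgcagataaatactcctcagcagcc

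Counting back from the start site, with -1 as the last base before it, the kappa-B motif matched from -71 to -62 in Cxcl1 and from -97 to -88 in Cxcl2, each time with an overlapping match on the other strand displaced by 1 base, and at -159 to -150 and -103 to -94 in Cxcl10. Cxcl10 also held TGANTCA, which reads alike on both strands, at -74 to -68 and the doubled GAAA at -213 to -204, and Ccl12 held TATAAA at -31 to -26. Ccl3 held no match to any of the 4 motifs in these letters, which says nothing of the factors that bind there. Among 32851 mouse promoters, searched from 250 bases before to 50 after the start site, 4.51% held the kappa-B motif, 7.81% TGANTCA, 3.44% the doubled GAAA and 13.62% TATAAA. The GC content of the printed windows was 46.8% for Ccl3, 48.4% for Ccl12, 59.2% for Cxcl1, 60% for Cxcl2 and 48% for Cxcl10, beside a median of 52.4% over the same window of all promoters.

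The comparison of Cell with Tissue asked what dissociation did to the transcripts. For all members but Cxcl16, the authors had already reported higher levels in these Cell-TRAP than Tissue-TRAP libraries. Calls of these members are therefore not independent of their choice. In TRAP, all 9 chemokines were called higher in Cell than in Tissue, against 25.1% of the 14953 genes tested. Apart from Cxcl2, which had 0 counts in Tissue-TRAP, the fitted changes ran from that of Cxcl16 to that of Ccl2. The share of microglial RNA differed between these groups as well. The summed level of 20 microglial core genes (P2ry12, Tmem119, Csf1r and others) was 15130 to 17670 CPM in Tissue-TRAP and 56660 to 62390 CPM in Cell-TRAP, 18 of the 20 were called higher, and none was at 0 in any group. In bulk RNA, fewer cells of a type and less RNA per cell cannot be told apart. The members are therefore given on a second scale too, as counts per 10000 counts of these 20 genes, and the tests were repeated with that sum as the library size (core scaling). Core scaling moved the median of all tested genes from -0.01 to -2.21 on the log2 scale for Cell-TRAP against Tissue-TRAP, so that a call under core scaling means a change beyond that of the core genes.

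Among the CCR2 ligands, Ccl2 stood at 1.08, 0.96, 0.927 and 0.138 CPM in the 4 Tissue-TRAP libraries and at 167, 60.98, 62.1 and 54.4 CPM in Cell-TRAP of the same mice. Every Cell library was thus far above every Tissue library, and the fitted change was 7.10 ± 0.53 (FDR = 5.93e-12), or 4.94 ± 0.56 with core scaling. Ccl7 was held between 0.83 and 1.13 CPM in Tissue-TRAP and between 33.8 and 117 CPM in Cell-TRAP, a change of 6.32 ± 0.51 (FDR = 2.79e-11). Ccl12 had the highest starting level of the 3, with 7.27, 6.83, 6.42 and 6.49 CPM in Tissue-TRAP, and reached 72.0, 43.6, 33.7 and 32.9 CPM in Cell-TRAP. Its change of 3.06 ± 0.26 (FDR = 6.76e-11) fell to 0.88 ± 0.26 with core scaling, under the 2-fold limit. Cell replicate 1 was the highest of the 4 in all 3 genes. The 8 border macrophage markers (Mrc1, Cd163, Lyve1 and others), none at 0, summed to 4511 CPM in that TRAP library against 2316 to 2465 CPM in the other 3 and 425 to 556 CPM in Tissue-TRAP, and all 8 were called higher in Cell. Their part in these changes was not tested. Without replicate 1, Ccl2 remained called at 6.52 and Ccl7 at 5.80.

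Ccl3 and Ccl4 were the most abundant members after dissociation. Ccl3 rose from 2.10, 3.72, 4.79 and 2.06 CPM in Tissue-TRAP to 315, 289, 247 and 245 CPM in Cell-TRAP, a spread of only 34.3 CPM (SD, n = 4) around a mean of 274. The change was 6.72 ± 0.34 (FDR = 3.03e-15), or 4.54 ± 0.35 with core scaling. Ccl4, the neighbouring gene, rose from 1.88, 2.09, 4.45 and 1.68 CPM to 197, 183, 141 and 151 CPM, a change of 6.33 ± 0.35 (FDR = 1.66e-14).

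The CXCR2 ligands were rare in every group. Cxcl2 had 0 counts in all 4 Tissue-TRAP libraries and 340, 100, 101 and 104 counts in Cell-TRAP. Against the limit of 3 counts that a total of 0 allows over the group, this was at least 202-fold higher (counting error only). Tissue-Input and both Tissue fractions of the comparison of preparations also held 0 counts of Cxcl2. Cxcl1 had 0, 6, 0 and 2 counts in Tissue-TRAP and 49, 18, 16 and 24 counts in Cell-TRAP, and its change of 3.89 ± 0.98 (FDR = 0.000897) was no longer called with core scaling (1.77 ± 1.08, FDR = 0.122).

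Cxcl10 and Cxcl16 moved in unlike ways. Cxcl10 stood at 0.773, 0.643, 0.124 and 0.138 CPM in Tissue-TRAP and at 7.35, 9.25, 4.18 and 6.91 CPM in Cell-TRAP, a change of 4.39 ± 0.55 (FDR = 8.98e-08) that stayed called at 2.22 ± 0.59 with core scaling. Cxcl16 was the most abundant member in Tissue-TRAP on the CPM scale, at 25.1, 31.3, 29.9 and 21.5 CPM, and reached 79.5, 88.1, 77.3 and 78.7 CPM in Cell-TRAP. Its change of 1.90 ± 0.10 (FDR = 1.04e-14) turned to -0.30 ± 0.11 with core scaling (FDR = 0.0115, under the 2-fold limit). Per 10000 core counts, Cxcl16 averaged 16.7 ± 3.0 in Tissue-TRAP and 13.5 ± 1.0 in Cell-TRAP (SD, n = 4). With core scaling, 6 of the 9 members were called higher in Cell-TRAP (Ccl2, Ccl3, Ccl4, Ccl7, Cxcl2 and Cxcl10), against 1.41% of all genes tested.

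**Figure D1:**
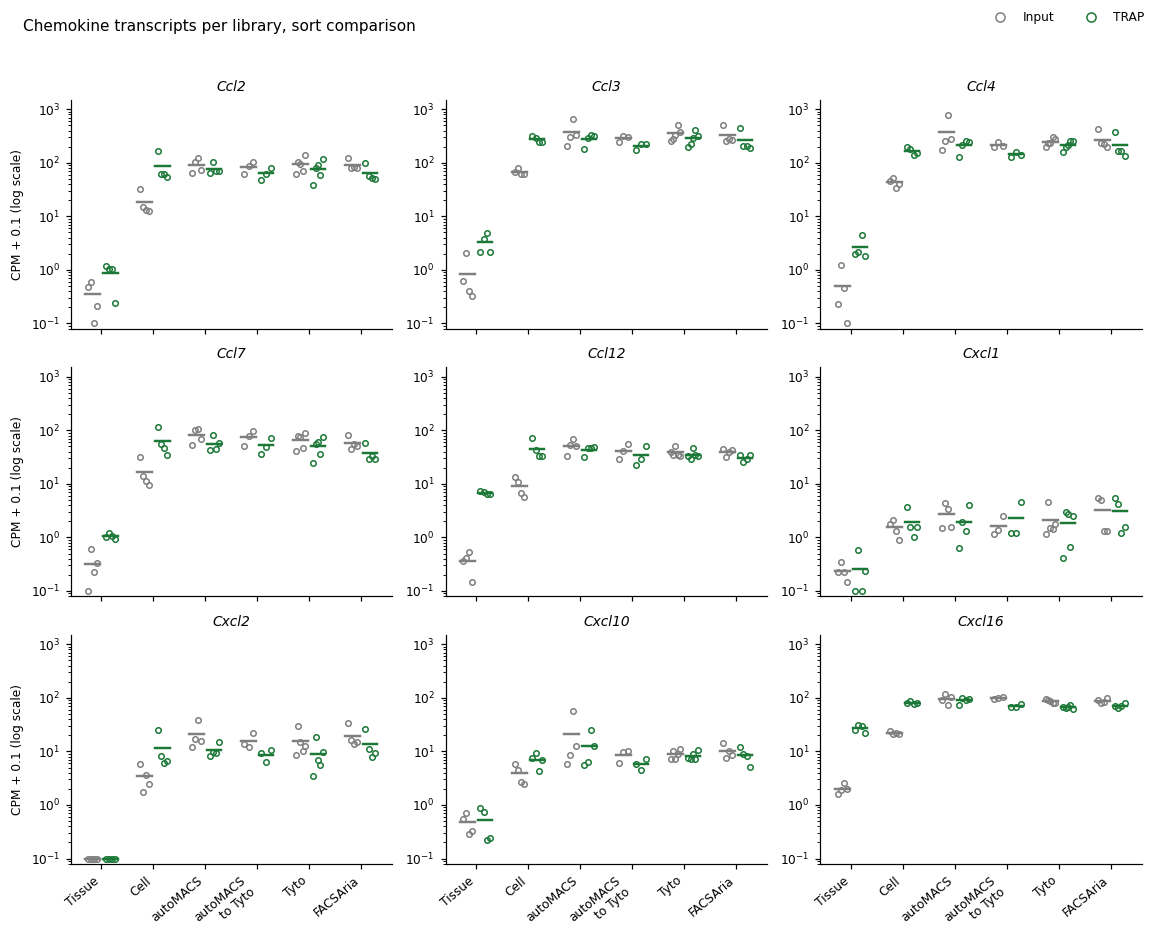
Level of each chemokine (CPM + 0.1, log axis) in every library of the comparison of sorts, Input in grey and TRAP in green, with a bar at each group mean. In TRAP all 9 genes sit far lower in Tissue than in Cell and stay near the Cell level in the 4 sorts, and in Input they climb from Tissue to Cell and, for 8 of the 9, again from Cell to the sorts.

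In Input, all 9 members were also called higher in Cell than in Tissue, against 28.5% of the 15750 genes tested. Ccl3 rose from 0.513, 1.93, 0.307 and 0.229 CPM in Tissue-Input to 66.6, 78.7, 62.1 and 62.4 CPM in Cell-Input, a change of 6.56 ± 0.45 (FDR = 8.25e-12). Ccl4 changed by 6.77 ± 0.55, Ccl7 by 6.24 ± 0.57, Ccl2 by 6.19 ± 0.51, Ccl12 by 5.13 ± 0.40, Cxcl16 by 3.57 ± 0.17, Cxcl10 by 3.38 ± 0.63 and Cxcl1 by 3.34 ± 0.70. Cxcl2, with 0 counts in Tissue-Input and 190 in Cell-Input over the 4 libraries, was at least 71-fold higher. The microglial core genes summed to 661 to 979 CPM in Tissue-Input and 10750 to 13190 CPM in Cell-Input. With core scaling, which moved the median of all genes tested to -3.96, 6 members stayed called higher (Ccl3 at 2.54, Ccl4 at 2.76, Ccl2 at 2.24, Ccl7 at 2.32, Ccl12 at 1.11, and Cxcl2), against 0.61% of all genes. Cxcl1 (-0.63), Cxcl10 (-0.62) and Cxcl16 (-0.55) were not called and turned negative. Ccl2, Ccl3, Ccl4, Ccl7 and Cxcl2 were thus called on both scales in both fractions.

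The sorted preparations were compared with Cell and with one another. Because they came from other mice than Cell, a difference from Cell due to the sort cannot be told apart from one due to the mice. In TRAP, edgeR called none of the 9 different between the mean of the 4 sorts and Cell, against 24.4% of all genes in either direction, and the fitted differences ran from -0.26 ± 0.26 (Ccl7) to 0.41 ± 0.31 (Cxcl10). At an unadjusted p under 0.05 the count was 0 as well, by edgeR and by DESeq2's Wald test. With core scaling (median of all genes -0.33) it was 3, all lower after sorting and within 2-fold, namely Cxcl16 (-0.28, FDR = 0.00474), Ccl12 (-0.53, FDR = 0.0161) and Ccl7 (-0.56, FDR = 0.0778). Ccl3 averaged 281 ± 69 CPM after autoMACS (SD, n = 4), 208 ± 30 after autoMACS to Tyto (n = 3), 290 ± 87 after Tyto (n = 5) and 261 ± 119 after FACSAria (n = 4), beside 274 ± 34 in Cell (n = 4). These means differed by less than the spread within the Tyto and FACSAria groups. The FACSAria spread came from replicate 1, at 440 CPM against 191 to 210 CPM in the other 3, and the same library was the highest of its group in Ccl2, Ccl4, Ccl7, Cxcl1, Cxcl2 and Cxcl10. Without Cell replicate 1, the difference of Ccl2 between sorts and Cell turned from -0.18 to 0.38 and remained uncalled (FDR = 0.193).

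Between the 4 sorts, no member was called in TRAP, against 4.17% of all genes, and none between Tyto and FACSAria, against 0.0936%. At an unadjusted p under 0.05 edgeR and DESeq2 each gave 1 member between the sorts, Cxcl16, and 0 between Tyto and FACSAria. After adjustment DESeq2 called 0 in each. The largest span between sorts was that of Cxcl10, 1.05 on the log2 scale (FDR = 0.242), and leaving out autoMACS replicate 1 brought it to 1.30 and past the threshold (FDR = 0.0834). Cxcl16 differed between sorts at FDR = 0.00571 but spanned only 0.43, from 66.3 ± 4.0 CPM after Tyto (SD, n = 5) to 90.9 ± 10.9 CPM after autoMACS (SD, n = 4). When autoMACS was followed by Tyto, Cxcl10 was called lower than after autoMACS alone (-1.05 ± 0.42, FDR = 0.0911), against 0.669% of all genes. The groups overlapped, with 5.38, 6.11, 25.5 and 12.4 CPM after autoMACS and 5.79, 4.43 and 7.21 CPM after the second sort. The high value of 25.5 CPM was replicate 3, which had no library after the second sort. With the mouse as a block the difference was -0.32 (FDR = 0.325), and without autoMACS replicate 3 it was -0.41 (FDR = 0.497). The call was also lost without autoMACS replicate 4 (FDR = 0.143) or without any of the 3 libraries of the second sort (FDR = 0.119 to 0.273).

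In Input, the members took a larger share of the counts after sorting. The mean of the 4 sorts was called higher than Cell for 8 of the 9 members, against 17.1% of all genes, with changes from 1.86 ± 0.42 (Cxcl10) to 2.97 ± 0.33 (Ccl4). Cxcl1 changed by 0.96 ± 0.46 (FDR = 0.0584, under the 2-fold limit). The microglial core genes summed to 41280 to 64990 CPM in the sorted Input libraries against 10750 to 13190 CPM in Cell-Input. With core scaling, which moved the median of all genes to -2.65 and called 89.9% of them lower, the 8 members differed by -0.66 (Cxcl10) to 0.46 (Ccl4) and were not called, and Cxcl1 was called lower at -1.60. No member differed between the sorts in Input, against 7.42% of all genes. At an unadjusted p under 0.05 edgeR gave 0 and DESeq2 gave 1, Cxcl10, which DESeq2 did not call after adjustment. Cxcl10 again had the largest span, 1.11 (FDR = 0.201), which was called at 1.41 without autoMACS replicate 1 (FDR = 0.0557) and at 1.71 with core scaling (FDR = 0.093). Its Input levels after autoMACS were 5.73, 8.48, 56.6 and 12.7 CPM. The high library, replicate 3, had the fewest counts of the comparison (7129464) and the lowest core sum of the sorted libraries, and it was also the highest of its group in Ccl2, Ccl3, Ccl4, Ccl7, Ccl12 and Cxcl2.

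**Figure D2:**
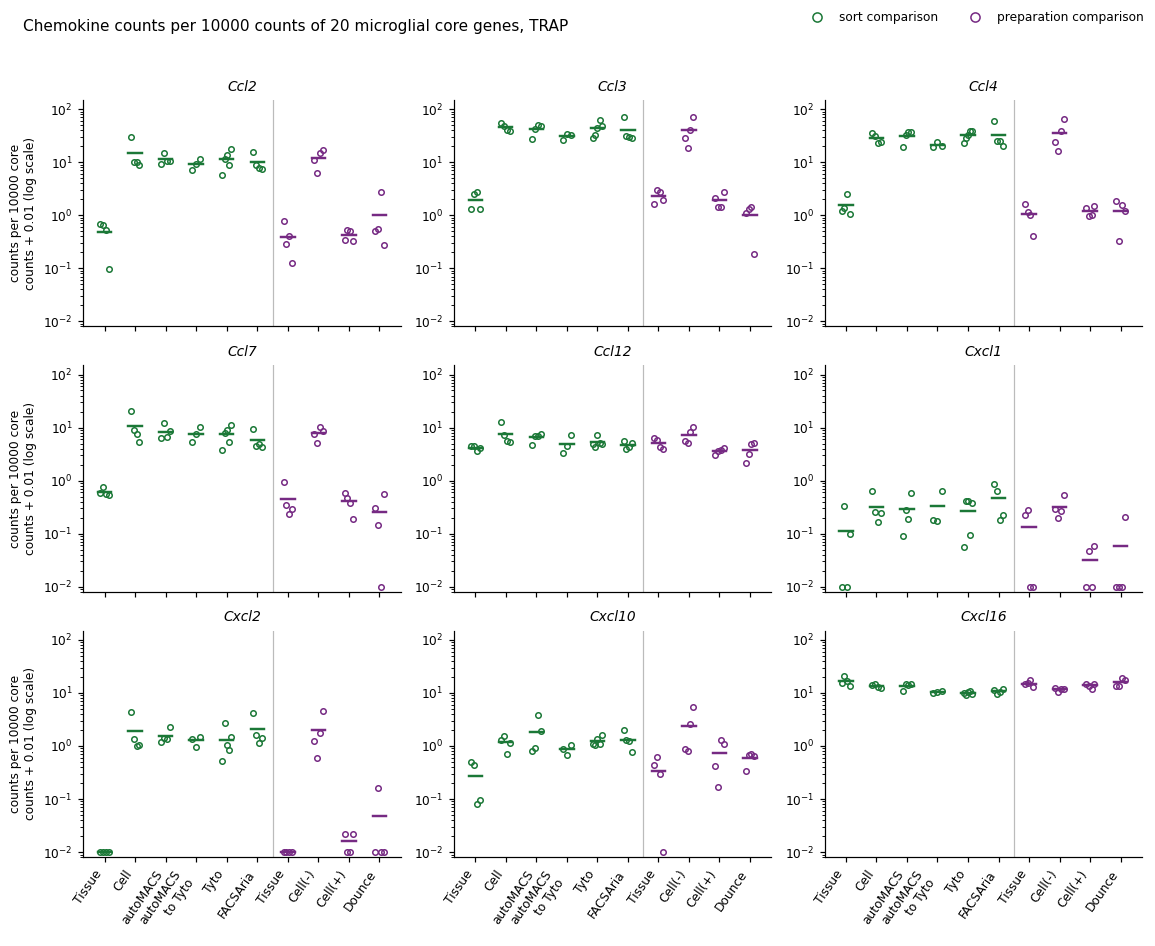
Chemokine counts per 10000 counts of the 20 microglial core genes (+ 0.01, log axis) in every TRAP library, with a bar at each group mean, the comparison of sorts in green and that of preparations in purple. Ccl2, Ccl3, Ccl4, Ccl7 and Cxcl2 are high in Cell, the sorts and Cell(-) and low in Tissue, Cell(+) and Dounce, whereas Cxcl16 stays between group means of 9.91 and 16.7 throughout.

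The TRAP fraction was compared with the Input of the same preparation. TRAP exceeded Input in Tissue for 5 of the 9 members (against 9.23% of all genes) in the comparison of sorts, namely Ccl12 at 4.76 ± 0.45, Cxcl16 at 3.94 ± 0.15, Ccl4 at 2.79 ± 0.70, Ccl7 at 2.24 ± 0.98 and Ccl3 at 2.23 ± 0.55. The call of Ccl7 (FDR = 0.0857) was lost on leaving out any of the 4 mice. Ccl2 (1.73 ± 0.99, FDR = 0.218), Cxcl10 (0.23 ± 0.87) and Cxcl1 (0.18 ± 1.15) were not called. In Cell, 8 of 9 were higher in TRAP (against 16.8%), from 1.32 ± 0.48 for Cxcl10 to 2.78 ± 0.26 for Ccl12, with Cxcl1 at 0.81 ± 0.68 (FDR = 0.273). With core scaling none was called higher in Cell, where only 8 of all 15825 genes were. On that scale 8 of the 9 values were negative (Ccl12 at 0.03), and Cxcl1 (-1.89) and Cxcl10 (-1.44) were called lower, against 92.1% of all genes. After sorting none was called by edgeR or by DESeq2 (against 18.9% in either direction), and the fitted differences lay between -0.73 ± 0.25 (Cxcl2) and -0.02 ± 0.34 (Cxcl1), with 5 members below 0 at an unadjusted p under 0.05. With the mouse as a block all 9 were lower in TRAP and within 2-fold. All but Cxcl1 (FDR = 0.85) then passed the FDR, with Cxcl2 at -0.66 (FDR = 1.63e-05) and Ccl7 at -0.41 (FDR = 2.02e-06). Core scaling called Cxcl2 lower after sorting at -1.001 (FDR = 0.00212), where 3550 of all 15825 genes were called lower. With core scaling, 6 members were called lower in Tissue-TRAP than in Tissue-Input (against 97.2% of all genes), where Input held 0 to 1.93 CPM of each.

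Whether the change from Tissue to Cell was the same in the 2 fractions was tested as an interaction. It was called for Ccl12 (-1.99 ± 0.58, FDR = 0.00369) and Cxcl16 (-1.59 ± 0.19, FDR = 2.88e-09), both of which rose more in Input than in TRAP, against 35.3% of all genes called. With core scaling the values were -0.24 for Ccl12 and 0.23 for Cxcl16, and instead Ccl2, Ccl3 and Cxcl10 were called, rising more in TRAP, against 58.6% of all genes called in that direction. Ccl12 and Cxcl16 were also the members with the highest TRAP level per kilobase of exon in Tissue. For Ccl2, Ccl3, Ccl4, Ccl7, Cxcl1 and Cxcl10 the interaction was not called, with fitted values from -0.36 ± 0.78 (Ccl4) to 1.08 ± 1.02 (Cxcl10). With the mouse as a block, that of Cxcl10 was called at 1.07 (FDR = 0.0826).

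The comparison of preparations repeated the dissociation in other mice, without and with inhibitors. In TRAP, all 9 members were again called higher in Cell(-) than in Tissue, against 22.3% of the 14723 genes tested. The changes were 7.16 ± 0.49 for Ccl4, 7.02 ± 0.56 for Ccl2, 6.22 ± 0.49 for Ccl7, 6.21 ± 0.43 for Ccl3, 4.94 ± 0.79 for Cxcl10, 3.41 ± 0.93 for Cxcl1, 2.63 ± 0.26 for Ccl12 and 1.73 ± 0.14 for Cxcl16. Cxcl2 rose from 0 counts to 687 over 4 libraries, at least 167-fold. With core scaling (median of all genes -2.23), Ccl2, Ccl3, Ccl4, Ccl7, Cxcl2 and Cxcl10 stayed called, against 1.37% of all genes, while Ccl12 stood at 0.53, Cxcl1 at 1.37 and Cxcl16 at -0.37. Cell(-) replicate 4 was the highest of its group in Ccl2, Ccl3, Ccl4, Ccl12, Cxcl2 and Cxcl10, and its border macrophage markers summed to 3243 CPM against 1748 to 2401 CPM in the other 3. Their part was not tested. Without that replicate the change of Cxcl10 was 4.23 and that of Ccl3 5.79, both called. This comparison and that of Cell with Tissue rest on the same 4 Tissue mice, so the resemblance of their values is not independent.

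**Figure D3:**
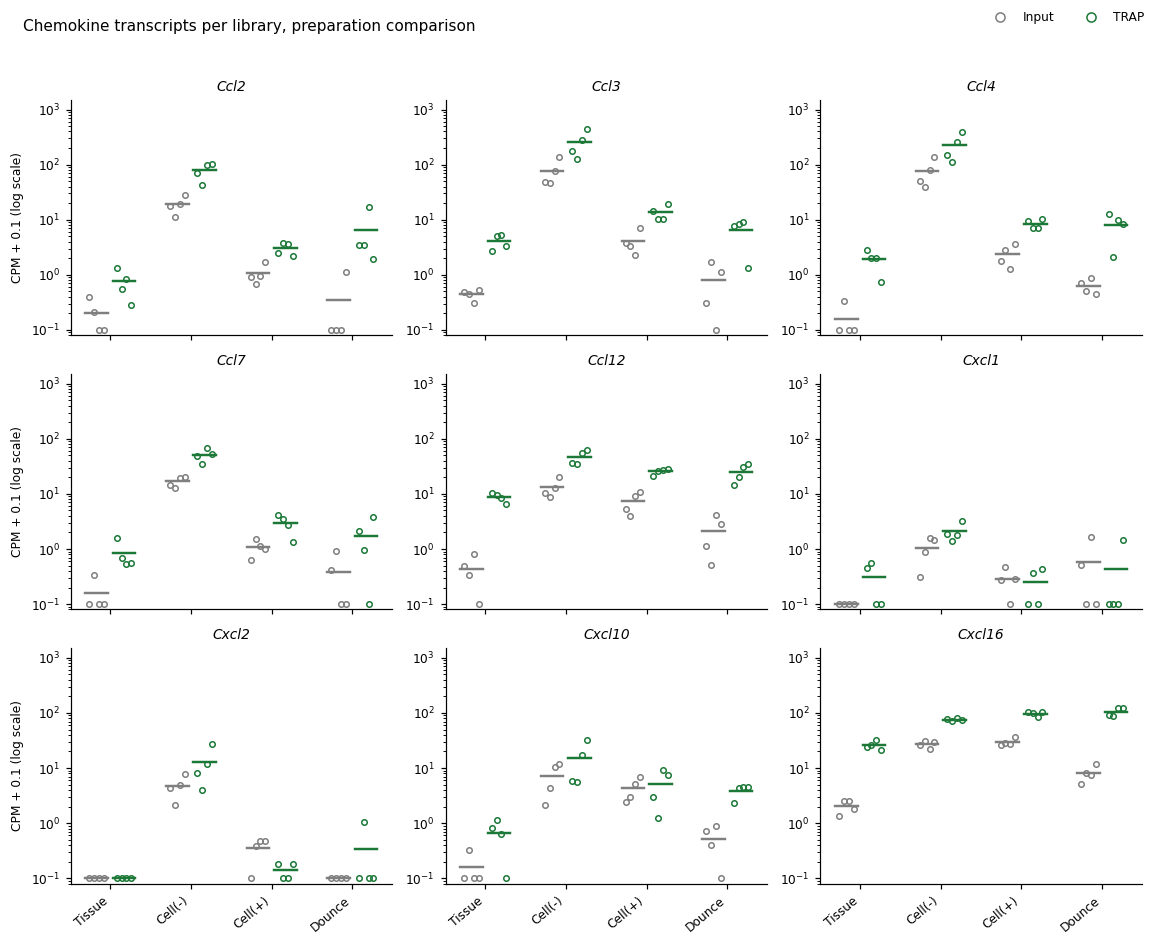
Level of each chemokine (CPM + 0.1, log axis) in every library of the comparison of preparations, Input in grey and TRAP in green, with a bar at each group mean. In TRAP, Ccl2, Ccl3, Ccl4, Ccl7 and Cxcl2 are high in Cell(-) and fall in Cell(+) and Dounce, while Ccl12 and Cxcl16 lie above Tissue in all 3 dissociated preparations.

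The inhibitors lowered most of the chemokines in suspensions of the same mice. For common chemokines, the authors had already reported from these TRAP libraries that both inhibitors and cold dissociation prevented the induction seen in Cell(-). Calls of the members against Cell(-) are therefore not independent of their choice either. In TRAP, 6 of the 9 members were called lower in Cell(+) than in Cell(-), against 0.632% of all genes. Ccl3 stood at 179, 127, 274 and 434 CPM in Cell(-) and at 14.6, 10.4, 10.2 and 18.9 CPM in Cell(+), a change of -4.29 ± 0.37 (FDR = 4.76e-07). Ccl4 went from 151, 110, 255 and 388 CPM to 9.52, 6.86, 7.03 and 10.3 CPM, a change of -4.80 ± 0.41 (FDR = 3.72e-07). Each of the 4 mice showed the same direction in both genes. Among the CCR2 ligands, Ccl2 went from 70.2, 42.5, 97.5 and 104 CPM to 2.37, 3.66, 3.49 and 2.14 CPM (-4.79 ± 0.46, FDR = 2e-06), and Ccl7 changed by -4.24 ± 0.42 (FDR = 2.98e-06). Cxcl2 had 118, 55, 149 and 365 counts in Cell(-) and 1, 0, 0 and 1 in Cell(+), a ratio of the summed levels of 304 with a 95% counting interval of 83.8 to 2510. Cxcl1, with 108 counts against 7 over the groups, changed by -3.70 ± 0.95 (FDR = 0.0613). That call was lost without any of Cell(-) replicates 1, 3 and 4 or Cell(+) replicates 1, 2 and 3 (FDR = 0.102 to 0.218), and without the filter on low counts (FDR = 0.108).

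The other 3 members were not called lower. Ccl12 stood at 36.3, 34.8, 54.2 and 61.9 CPM in Cell(-) and at 21.0, 26.3, 26.5 and 28.2 CPM in Cell(+), a difference of -0.93 ± 0.24 that passed the FDR (0.0626) but not the 2-fold limit. With core scaling it was called at -1.004 (FDR = 0.0875), as it was without Cell(-) replicate 1 or 2. Cxcl10 stood at 5.65, 5.58, 17.3 and 32.2 CPM in Cell(-) and at 2.84, 1.14, 9.08 and 7.41 CPM in Cell(+). The groups overlapped, but each mouse had less with inhibitors, and the difference of -1.63 ± 0.62 (FDR = 0.354) was called at -1.56 (FDR = 0.00113) with the mouse as a block. Cxcl16 stood at 77.9, 72.2, 79.7 and 73.0 CPM without and at 102, 98.2, 85.0 and 102 CPM with inhibitors, higher in all 4 mice by 0.31 ± 0.13 (FDR = 0.428). With the mouse as a block its rise was 0.33 and passed the FDR (0.0103) but not the 2-fold limit. Microglial core genes summed to 60270 to 69290 CPM in Cell(-)-TRAP and 68340 to 72130 CPM in Cell(+)-TRAP, and none of the 20 was called. Core scaling therefore moved the median of all genes only to -0.10, and the 6 called members stayed called and were joined by Ccl12, against 0.652% of all genes.

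**Figure D4:**
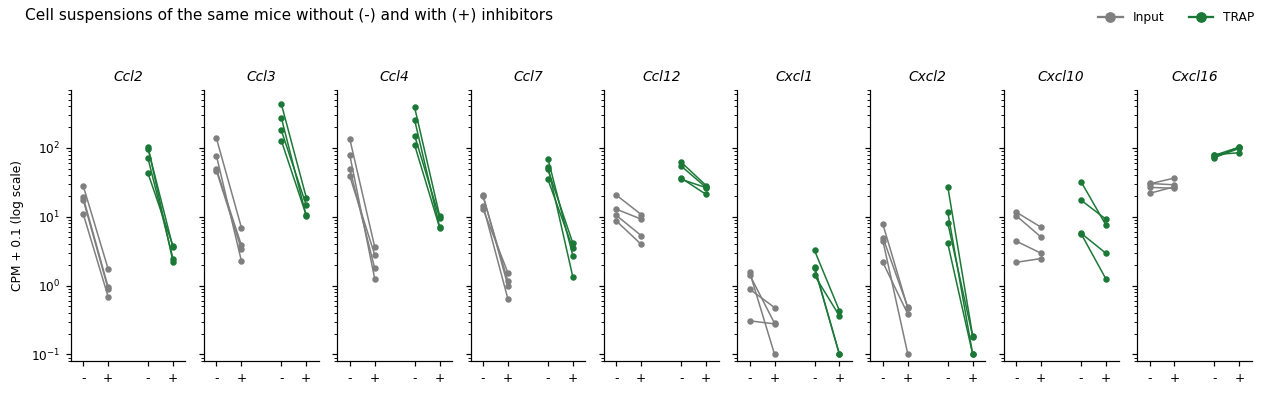
Level of each chemokine (CPM + 0.1, log axis) in the suspension without (-) and with (+) inhibitors, each line joining the preparations of the same mouse, Input in grey and TRAP in green. All lines of Ccl2, Ccl3, Ccl4, Ccl7 and Cxcl2 fall steeply, those of Ccl12 and Cxcl10 in TRAP fall less, and those of Cxcl16 in TRAP rise slightly.

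In Input, 8 members passed the filter on low counts and Cxcl1 did not. Of the 8, 5 were called lower with inhibitors, against 0.311% of all genes, namely Ccl4 (-5.06 ± 0.38, FDR = 5.8e-08), Ccl2 (-4.29 ± 0.53, FDR = 7.84e-05), Ccl3 (-4.28 ± 0.40), Cxcl2 (-4.17 ± 0.65) and Ccl7 (-4.12 ± 0.45). Ccl12 (-0.87 ± 0.45), Cxcl10 (-0.74 ± 0.51) and Cxcl16 (0.10 ± 0.20) were not. No member showed a different effect of the inhibitors in the 2 fractions, against 0.145% of all genes. At an unadjusted p under 0.05 edgeR and DESeq2's Wald test each gave 1, Cxcl2, and the Wald test called 0 after adjustment.

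Set against intact tissue, the suspension with inhibitors kept some excess of chemokine reads in TRAP. Cell(+) was called higher than Tissue for 7 of 9 members, against 21.6% of all genes. The changes were 3.31 ± 0.78 for Cxcl10, 2.36 ± 0.49 for Ccl4, 2.23 ± 0.61 for Ccl2, 2.05 ± 0.14 for Cxcl16, 1.98 ± 0.52 for Ccl7, 1.92 ± 0.41 for Ccl3 and 1.70 ± 0.25 for Ccl12. Cxcl1 (-0.30 ± 1.16) was not called, and Cxcl2 had 2 counts in Cell(+) and 0 in Tissue, which gives no fold. None of the 7 was called higher with core scaling (median of all genes -2.31), against 0.754% of all genes, and the values lay between -0.48 (Ccl12) and 1.16 (Cxcl10, FDR = 0.183). Cxcl1 was called lower on that scale at -2.39 (FDR = 0.074), against 80.7% of all genes called lower. Per 10000 core counts, Ccl3 averaged 2.31 ± 0.65 in Tissue-TRAP, 1.93 ± 0.63 in Cell(+)-TRAP and 39.9 ± 23.3 in Cell(-)-TRAP (SD, n = 4).

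In Input the low Tissue levels made several folds imprecise. All 8 tested members were called higher in Cell(-)-Input than in Tissue-Input, against 25.6% of all genes. Ccl3 rose by 7.69 ± 0.55, Ccl12 by 5.14 ± 0.64 and Cxcl16 by 3.74 ± 0.25. Ccl4 had a ratio of 1450 with a counting interval of 401 to 12000, Ccl7 of 320 (88.2 to 2650) and Cxcl10 of 134 (36.7 to 1110), and Cxcl2 was at least 60.2-fold higher. With core scaling 6 of the 8 stayed called, all but Ccl12 (0.89) and Cxcl16 (-0.58), against 0.413% of all genes. Cell(+)-Input was called higher than Tissue-Input for all 8 as well (against 25.5%), Ccl3 at 3.41 ± 0.66 and Ccl12 at 4.27 ± 0.65. Here no member stayed called with core scaling, against 0.279% of all genes called higher. At an unadjusted p under 0.05 the core-scaled count was 1, Cxcl16, which was lower.

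The Dounce preparation showed the levels of the members after cold mechanical dissociation. The paper reported lower RNA integrity and yield for Dounce-Input than for Tissue or the suspensions, and a whole brain per sample. It also reported more bias of reads towards the transcript end in Tissue and Dounce than in the suspensions. The part of these differences was not tested. In TRAP, 6 of 9 members were called higher in Dounce than in Tissue, against 23.2% of all genes. Ccl2 stood at 3.34, 3.39, 17.0 and 1.87 CPM in Dounce against 1.26, 0.46, 0.751 and 0.187 CPM in Tissue, a change of 3.07 ± 0.65 (FDR = 0.000384). Replicate 3 stood far above the other 3, and without it the change was 2.10 (FDR = 0.00396). In the Input of that replicate the 8 blood myeloid markers (S100a8, S100a9, Camp, Ngp and others) summed to 1576 CPM, the highest of 4 Dounce-Input libraries that reached down to 242 CPM. In its TRAP fraction they summed to 30.1 CPM, and their part was not tested. Cxcl10 changed by 2.74 ± 0.85, Ccl4 by 2.10 ± 0.57, Cxcl16 by 2.02 ± 0.14 and Ccl12 by 1.52 ± 0.27. The call of Cxcl2 rested on 5 counts in Dounce replicate 2 alone against 0 in Tissue, at least 4.74-fold higher, and was lost without that library.

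Ccl3 stood at 7.51, 8.13, 9.01 and 1.25 CPM in Dounce-TRAP against 2.66, 4.99, 5.14 and 3.19 CPM in Tissue-TRAP, and its difference of 0.71 ± 0.50 was not called (FDR = 0.213). Without Dounce replicate 4, which held the low value, it was called at 1.03 (FDR = 0.0682). Ccl7 (1.09 ± 0.67, FDR = 0.156) was called without Tissue replicate 1 (1.74) or without Dounce replicate 3 (1.39). With core scaling (median of all genes -2.01) no member was called higher in Dounce-TRAP than in Tissue-TRAP, against 1.95% of all genes, and Ccl3 was called lower at -1.22 (FDR = 0.0331), against 74.3% of all genes called lower.

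**Figure D5:**
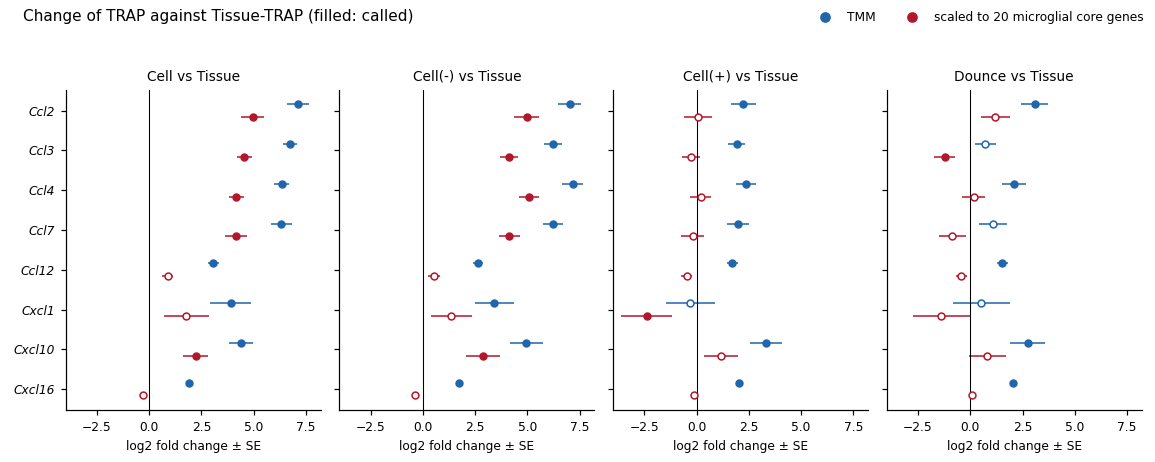
Log2 fold change ± SE of each chemokine in Cell, Cell(-), Cell(+) and Dounce against Tissue, all TRAP, with the library total after TMM scaling (blue) and with core scaling (red), filled where called. Cxcl2 is left out because Tissue held 0 counts. In Cell and Cell(-), Ccl2, Ccl3, Ccl4 and Ccl7 stay above 4 on both scales, and in Cell(+) and Dounce the red points lie around 0 or below for most genes.

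Against the suspension without inhibitors, made from other mice, Dounce was called lower for 8 of 9 members in TRAP, against 8.02% of all genes. Ccl3 changed by -5.49 ± 0.44 (FDR = 9.97e-09), Ccl7 by -5.13 ± 0.51, Ccl4 by -5.06 ± 0.45, Ccl2 by -3.95 ± 0.48, Cxcl2 by -5.36 ± 0.88, Cxcl1 by -2.89 ± 1.08 and Cxcl10 by -2.20 ± 0.69. Ccl12 was called at -1.11 ± 0.25 (FDR = 0.00114), and fell within 2-fold without Cell(-) replicate 4 or Dounce replicate 1 and with core scaling (-0.95). Cxcl16 stood at 91.3, 87.3, 123 and 121 CPM in Dounce and was higher by 0.29 ± 0.13 (FDR = 0.0784), under the 2-fold limit. The microglial core sum of 63350 to 69320 CPM in Dounce-TRAP lay within the range of the suspensions.

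The Dounce preparation and the suspension with inhibitors were also compared in TRAP. Of the 9 members Ccl3 alone was called, at -1.21 ± 0.45 in Dounce (FDR = 0.0292), against 7.63% of all genes called lower. The call was lost without Dounce replicate 4 (-0.89, FDR = 0.0967) and with core scaling (-0.97, FDR = 0.094). Ccl2 (0.84 ± 0.53, FDR = 0.19), Ccl4 (-0.26 ± 0.47), Ccl7 (-0.89 ± 0.57), Ccl12 (-0.18 ± 0.25), Cxcl10 (-0.57 ± 0.70) and Cxcl16 (-0.03 ± 0.13) were not called. Cxcl2 had 5 counts in Dounce and 2 in Cell(+), a ratio of 8.63 with a counting interval of 1.41 to 90.7. All 5 were in Dounce replicate 2, and the interval leaves out the spread between mice. Cxcl2 was not called by edgeR but was by DESeq2's Wald test (2.77, FDR = 0.0884).

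In Input, Dounce was called higher than Tissue for 5 of 8 members tested, against 28.7% of all genes, with Ccl12 at 2.35 ± 0.74 and Cxcl16 at 2.00 ± 0.26. The other 3 of the 5, Ccl4, Cxcl10 and Ccl7, had ratios of 10.0 (2.35 to 89.8), 8.14 (1.84 to 74.3) and 6.88 (1.50 to 63.9). Leaving out a replicate brought the count to between 3 and 5, with Ccl7 lost in 4 of the 8 fits and Cxcl10 in 5. With core scaling none of the 5 was called higher, where 523 of all 15753 genes were. Their values ran from -0.48 (Cxcl16) to 0.75 (Ccl4), and Ccl3 was called lower at -1.40 (FDR = 0.0875), against 78.3% of all genes called lower. All 8 were called lower in Dounce-Input than in Cell(-)-Input, against 28.1% of all genes, and lower than in Cell(+)-Input, against 27.9%. The core genes were far lower in Dounce-Input too, at 3138 to 4725 CPM against 11590 to 17800 CPM in Cell(-)-Input and 14510 to 20590 CPM in Cell(+)-Input, with 19 and 20 of the 20 called lower. With core scaling 6 of the 8 stayed lower than in Cell(-)-Input (against 4.81% of all genes) and none than in Cell(+)-Input (3.78%), where the count at an unadjusted p under 0.05 was 0 too.

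The pull-down acted on the members in this comparison as follows. TRAP was called higher than Input for 7 of 9 members in Tissue (against 8.21% of all genes), 8 of 9 in Cell(-) (10.6%), 6 of 9 in Cell(+) (9.71%) and 8 of 9 in Dounce (20.8%). Ccl12 and Cxcl16 were called in each of the 4, with Ccl12 from 1.94 ± 0.36 in Cell(+) to 4.69 ± 0.55 in Tissue and Cxcl16 from 1.63 ± 0.16 in Cell(-) to 4.01 ± 0.19 in Dounce. Cxcl1 was not called in any of them, but with the mouse as a block it was called in Cell(-) at 1.604 (FDR = 0.0112). The count in Tissue fell to 4 or 5 on leaving out a mouse, and Ccl2 and Cxcl10 lost their call without any of the 4. With core scaling no member was called higher in any of the 4 preparations. Of all 15894 genes, only 9 were in Tissue, 1 in Cell(-), 1 in Cell(+) and 5 in Dounce. Cxcl1 (-2.25), Cxcl2 (-4.02) and Cxcl10 (-1.80) were then called lower in Cell(+), against 91.6% of all genes, and Cxcl1 (-4.56) and Ccl7 (-1.74) in Dounce, against 96.3%.

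Per kilobase of exon, the order of the members changed with dissociation. In Tissue-TRAP, Ccl12 led at 12.6 CPM per kb and Cxcl16 followed at 8.92, then Ccl3 at 4.14, Ccl4 at 3.82, Ccl7 at 1.20 and Ccl2 at 0.683, with overlapping libraries for Ccl3 and Ccl4. Cell-TRAP put Ccl3 first at 358 CPM per kb and Ccl4 next at 254, ahead of Ccl12 at 84.8, Ccl7 at 78.6 and Ccl2 at 75.6, which overlapped one another, and of Cxcl16 at 26.8, Cxcl2 at 5.44, Cxcl10 at 3.07 and Cxcl1 at 0.989. Cell(-)-TRAP began with Ccl4 at 342 and Ccl3 at 331 CPM per kb, whose libraries overlapped. With inhibitors the order returned to Ccl12 at 47.5, Cxcl16 at 32.1, Ccl3 at 17.6 and Ccl4 at 12.8 CPM per kb, and in Dounce-TRAP Ccl12 stood at 46.8 and Cxcl16 at 34.9.

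The other chemokine genes on the list moved in both directions. Of 28 further chemokines, 21 were listed and 16 tested in TRAP of the comparison of sorts, and 7 were called higher and 6 lower in Cell than in Tissue (against 25.1% and 29.3% of all genes), with a median of 0.32 against -0.01 over all genes. In Cell(-)-TRAP against Tissue-TRAP, 8 of 14 tested were called higher and 5 lower (against 22.3% and 30.8%), with a median of 1.37 against -0.13. Cx3cl1, the neuronal ligand of the receptor CX3CR1, fell from 683 to 28.6 CPM (-4.27 ± 0.19). Ccl27a changed by -4.53 ± 0.48 and Ccl28 by -3.28 ± 0.82. Neuronal markers moved the same way, with all 10 lower and a sum of 7957 to 8673 CPM in Tissue-TRAP and 132 to 369 CPM in Cell-TRAP, and their part in these values was not tested. After sorting, Cxcl12 (-5.89), Cx3cl1 (-5.68) and Cxcl14 (-4.37) were called lower than in Cell-TRAP, as were the 10 neuronal and the 10 astrocyte markers. In Input, 11 of 20 tested were higher in Cell than in Tissue and 6 lower (against 28.5% and 17.5% of all genes), with Ccl24 (5.21), Ccl5 (5.03), Ccl9 (4.88) and Ccl6 (4.47) the largest. With inhibitors, 1 of 14 tested in TRAP was called lower (against 0.632% of all genes), Ccl24 (-1.49 ± 0.34, FDR = 0.027), a ligand of the eosinophil receptor CCR3 that went from 23.9 to 8.80 CPM.

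Among 24 chemokine receptors, 18 were listed and 14 tested, and 10 were called higher and 3 lower in Cell-TRAP than in Tissue-TRAP (against 25.1% and 29.3% of all genes), with a median of 2.12. The microglial core genes had a median of 2.19 in the same comparison. Ccr2, the receptor of Ccl2, Ccl7 and Ccl12, changed by 3.87 ± 0.29, with 6.18 CPM in Cell-TRAP against 0.514 CPM in Tissue-TRAP. Ccrl2, a receptor that binds chemerin without signalling, changed by 5.29 ± 0.31, and Darc (Ackr1), known from red cells and venular endothelium, by -6.09 ± 0.34. With inhibitors 1 of 17 tested was called lower in TRAP (against 0.632% of all genes), Ccrl2, by -2.87 ± 0.37 (FDR = 9.95e-05).

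Of 26 genes of NF-kB signalling, which act upstream of many chemokine genes, all were tested, and 21 were called higher and none lower in Cell-TRAP than in Tissue-TRAP (against 25.1% and 29.3% of all genes). Their median of 1.87 lay below the 2.19 of the microglial core genes. The cytokine gene Tnf changed by 8.90 ± 0.57, Nfkbiz, a nuclear cofactor of NF-kB, by 6.78 ± 0.44, the cytokine gene Il1b by 6.49 ± 0.63 and Tnfaip3, a feedback inhibitor, by 5.02 ± 0.28. With inhibitors 5 of the 26 were called lower in TRAP (against 0.632% of all genes), among them Il1b (-4.83 ± 0.53), Nfkbiz (-4.44 ± 0.34), Tnf (-4.28 ± 0.43) and Tnfaip3 (-2.68 ± 0.18). Against Tissue-TRAP, 21 of 26 were called higher in Cell(+)-TRAP (against 21.6% of all genes), including Rel (4.60 ± 0.66) and Tnf (4.47 ± 0.71). In Dounce-TRAP 6 of 26 were lower than in Cell(-)-TRAP, against 8.02% of all genes.

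The genes whose group means most resembled those of the members were found by the Pearson correlation of log levels over the 12 groups of the comparison of sorts and the 8 groups of preparations. As a description, the mean profile of the 9 members was most like that of Btg2 (r = 0.995 over 12 groups and 0.993 over 8), followed by Zfp36, Tnfaip3, Nfkbia and Socs3 by the smaller of the 2 values. Singly, Ccl3 and Ccl7 were most like Atf3 (Ccl3 r = 0.998 and 0.992), Ccl2 and Ccl4 most like Socs3, Cxcl2 most like Csrnp1, Cxcl10 most like Klf6 and Cxcl1 most like Nfkbid (r = 0.951 and 0.954). Ccl12 and Cxcl16 had other partners, Cebpa (r = 0.993 and 0.997) and Rnaset2a (r = 0.997 and 0.998). The groups share mice and differ in microglial share, which every such correlation includes.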

How the data were processed

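Input and TRAP RNA of 48 libraries (comparison of sorts) and 32 libraries (comparison of preparations) was sequenced from directional poly(A) libraries. The authors trimmed reads, aligned them to mm10 in Strand NGS, removed duplicates and deposited expected counts, listing a gene if some group had over 5 reads of it in all of its libraries. They also deposited log2 values normalized with DESeq2 and set to the median of Tissue-Input, which were not used here. Of the count values, 33.2% and 20.8% were whole numbers (within 1e-09), and all were rounded. Because only listed genes carry counts, CPM is relative to their total, and a removed duplicate or shared read cannot be recovered.

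Counts were tested with edgeR 4.0.16 (R 4.3.3, TMM scaling, quasi-likelihood F test) over all genes passing the filter (over 5 counts in all libraries of some fitted group). TRAP groups were fitted together, Input groups together, and both fractions together for TRAP against Input, and Benjamini-Hochberg adjustment ran over all genes tested. SE is the fitted log2 change divided by the square root of F. Calls needed an FDR under 0.1 and over 2-fold. Where 1 group held 0 counts, the fold is a lower bound against 3 counts over the group, and where it held 1 to 3, a ratio with an exact 95% interval is given. Intervals and bounds cover counting error only. Tested on simulated counts, the fit recovered 100% of 200 genes changed by 1.5 or 2 on the log2 scale in each of 2 comparisons, and called 0.013% of 14868 unchanged genes for Cell-TRAP against Tissue-TRAP. Only well-counted genes were changed in the simulation, and all genes shared a common spread. It therefore does not cover members with few counts, or comparisons in which far more genes change.

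Members were matched by symbol, and other genes were named by a fixed rule of largest called change in each list. The members and lists were chosen with earlier results of these data known. Alternatives were core scaling, DESeq2 1.42.0 size factors, DESeq2's Wald test (a likelihood ratio test between sorts), no filter, a filter of 10 counts in every sample, only the compared groups, the mouse as a replicate block, and leaving out each replicate. The block rests on mouse numbers in the labels. Deviations from the group means of same-mouse libraries correlated at a mean of 0.199 for Cell and Tissue in TRAP, 0.309 for Cell(-) and Cell(+) in TRAP, 0.0565 and 0.0559 for the same pairs in Input, 0.131 for autoMACS before and after Tyto and 0.213 for Tyto and FACSAria.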

Additional observations from a re-analysis of the deposited data

Results flagged for a closer look

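Single libraries stood apart from their group in 23 of the 143 sets of 4 or 5 values examined, by the gap between the extreme library and its nearest neighbour as a share of the range (Dixon's test), and chance alone flags about 1 in 20 sets. FACSAria replicate 1 was apart in 4 of the genes in Input and 5 in TRAP. Its Input levels against the next highest were 121 and 84.4 CPM for Ccl2, 505 and 280.0 CPM for Ccl3, 433 and 230.4 CPM for Ccl4, and 33.1 and 15.9 CPM for Cxcl2. In TRAP they were 98.2 and 57.5 CPM for Ccl2, 440 and 210.1 CPM for Ccl3, 374 and 169 CPM for Ccl4, 58.2 and 33.3 CPM for Ccl7, and 26.3 and 10.8 CPM for Cxcl2.

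Cell replicate 1 was apart in Ccl2, with 32.1 against 14.7 CPM in Input and 167 against 62.1 CPM in TRAP, and in Cxcl2 in TRAP, with 24.5 against 8.16 CPM. The autoMACS-Input library of replicate 3 stood at 792 against 278 CPM for Ccl4 and at 56.6 against 12.7 CPM for Cxcl10. In the other sorts, Ccl12 was at 46.8 against 33.99 CPM in Tyto-TRAP replicate 3 and Cxcl1 at 4.51 against 1.71 CPM in Tyto-Input replicate 2.

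Among low levels, Ccl2 was at 0.138 CPM in Tissue-TRAP replicate 4, below the next value of 0.927 CPM, Ccl3 at 1.93 against 0.513 CPM in Tissue-Input replicate 2, and Ccl4 at 4.45 against 2.09 CPM in Tissue-TRAP replicate 3. In the comparison of preparations, Ccl7 was at 1.51 against 0.575 CPM in Tissue-TRAP replicate 1, Ccl2 at 17.0 against 3.39 CPM in Dounce-TRAP replicate 3 and at 1.02 against 0 CPM in Dounce-Input replicate 4, and Cxcl10 at 2.22 CPM in Dounce-TRAP replicate 1, below the next value of 4.23 CPM.

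The change from Tissue to Cell differed between TRAP and Input for Ccl12, by -1.99 on the log2 scale (edgeR FDR = 0.00369), and for Cxcl16, by -1.59 (FDR = 2.88e-09), both smaller in TRAP. Of all genes, 35.3% were called for this interaction. With core scaling neither member was called, with Ccl12 at -0.24 and a change of sign for Cxcl16.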

How the results depend on the processing

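Core scaling was the alternative that changed most. Of the 255 member values under it, 136 kept their call or stayed uncalled, 39 lost the call, 10 gained it and 70 that were called on either scale changed sign. Some values that were uncalled on both scales also changed sign and are among the 136, such as Ccl7 for Dounce against Tissue in TRAP, at -0.85 with core scaling. The 70 are listed here. Relative to the core genes, the fitted log2 change in TRAP turned to Cxcl16 -0.30 for Cell against Tissue and -0.37 for Cell(-) against Tissue, to Ccl3 -0.25, Ccl7 -0.18, Ccl12 -0.48 and Cxcl16 -0.13 for Cell(+) against Tissue, and to Ccl3 -1.22 and Ccl12 -0.42 for Dounce against Tissue. In Input it turned to Cxcl1 -0.63, Cxcl10 -0.62 and Cxcl16 -0.55 for Cell against Tissue, Ccl7 -0.21, Ccl12 -0.042, Cxcl1 -1.60, Cxcl10 -0.66 and Cxcl16 -0.18 for the sorts against Cell, Cxcl16 -0.58 for Cell(-) against Tissue, Ccl2 -1.35, Ccl3 -1.04, Ccl7 -0.32, Ccl12 -0.16 and Cxcl16 -0.61 for Cell(+) against Tissue, Ccl3 -1.40 and Cxcl16 -0.48 for Dounce against Tissue, Cxcl16 0.10 for Dounce against Cell(-), and Ccl7 0.43, Ccl12 0.16 and Cxcl16 0.13 for Dounce against Cell(+). The interaction of Cell or Tissue with fraction turned to 0.23 for Cxcl16. For TRAP against Input it turned in Tissue of the comparison of sorts to Ccl2 -2.76, Ccl3 -2.27, Ccl4 -1.73, Ccl7 -2.23, Cxcl1 -4.29, Cxcl10 -4.26 and Cxcl16 -0.63, in Cell to Ccl2 -0.046, Ccl3 -0.25, Ccl4 -0.30, Ccl7 -0.37, Cxcl1 -1.89, Cxcl2 -0.52, Cxcl10 -1.44 and Cxcl16 -0.40, in Tissue of the comparison of preparations to Ccl2 -1.94, Ccl3 -1.10, Ccl7 -0.76, Cxcl10 -1.21 and Cxcl16 -0.89, in Cell(-) to Ccl2 -0.13, Ccl3 -0.43, Ccl4 -0.58, Ccl7 -0.58, Ccl12 -0.32, Cxcl2 -0.73, Cxcl10 -1.06 and Cxcl16 -0.67, in Cell(+) to Ccl2 -0.49, Ccl3 -0.31, Ccl4 -0.20, Ccl7 -0.62, Ccl12 -0.28, Cxcl10 -1.80 and Cxcl16 -0.40, and in Dounce to Ccl3 -0.93, Ccl4 -0.11, Ccl7 -1.74, Ccl12 -0.35, Cxcl10 -0.86 and Cxcl16 -0.31. Counts of members called became 1 for the sorts against Cell in Input, 1 between sorts in Input, 1 for Cell(+) and 1 for Dounce against Tissue in TRAP, 0 for Dounce against Cell(+) in both TRAP and Input, 0 for Cell(+) and 1 for Dounce against Tissue in Input, and, for TRAP against Input, 2 in Cell, 1 in the mean of the sorts, 0 in Tissue and 0 in Cell(-) of the comparison of preparations, 3 in Cell(+) and 2 in Dounce.

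Under a filter of at least 10 counts in every sample, most members were not tested, so that counts fell by construction. Cell-TRAP against Tissue-TRAP then gave 5 of 5, autoMACS to Tyto against autoMACS 0 of 5, and Cell(-), Cell(+) and Dounce against Tissue in TRAP 2 of 2 each. Cell(+) against Cell(-) and Dounce against Cell(+) in TRAP gave 0 of 2, and Dounce against Cell(-) 1 of 2. In Input 1 member was tested, with a count of 0 for Cell(+) against Cell(-) and of 1 for Cell against Tissue, the sorts against Cell, and each of the other comparisons of preparations, as for TRAP against Input in Tissue, Cell, Cell(-), Cell(+) and Dounce and for the interaction. The lower Cxcl10 in autoMACS to Tyto was the only member called there, and 0 were called with DESeq2 size factors, with the compared groups alone, with DESeq2's Wald test or with the replicate block. DESeq2's Wald test called 2 for Dounce-TRAP against Cell(+)-TRAP, and 4 for Cell(+)-TRAP against Cell(-)-TRAP, where it gave Cxcl1 and Cxcl2 no adjusted p. With the compared groups alone, fewer members passed the filter and 1 of 1 was called for Dounce-Input against Tissue-Input, 4 of 4 for TRAP against Input in Tissue of the comparison of preparations and 5 of 5 in Dounce. With the mouse as a replicate block the last 2 counts were also 4 of 4 and 5 of 5, Cxcl10 became called for Cell(+) against Cell(-) in TRAP (-1.56) and for the interaction (1.07), Cxcl1 for TRAP against Input in Cell(-) (1.604), and no other call of a member changed in the comparisons it could be fitted to.

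Leaving out each replicate in turn gave 0 to 1 members between the sorts in TRAP and in Input and for autoMACS to Tyto, 8 to 9 for the sorts against Cell in Input, 5 to 7 for Dounce against Tissue in TRAP, 5 to 7 for Cell(+) and 7 to 8 for Dounce against Cell(-) in TRAP, 1 to 2 for Dounce against Cell(+) in TRAP, 8 to 9 for Cell(-) and 3 to 5 for Dounce against Tissue in Input, and 7 to 8 for Dounce against Cell(+) in Input. For TRAP against Input it gave 4 to 4 in Tissue of the comparison of sorts, 4 to 5 in Tissue of the comparison of preparations, 6 to 8 in Cell(-), 6 to 7 in Cell(+) and 7 to 8 in Dounce. Over single members, 2193 values without a replicate kept their call or stayed uncalled, 44 lost the call and 19 gained it. DESeq2 size factors kept 252 of 255 and no filter 254 of 255. Depth limited Cxcl1 and Cxcl2 in Tissue-TRAP and all members but Cxcl16 in Tissue-Input, and the Dounce-TRAP libraries were the shallowest. Same-numbered replicates that come from other mice were not blocked. The cause of the other changes was not tested.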
